A study of Drosophila melanogaster with 13 samples.

Results

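The open chromatin around puc, Ets21C and Ilp8, genes that respond to Jun N-terminal kinase (JNK) signaling, was followed in 11 samples of Drosophila larval eye-antennal discs. The regions are all merged peaks (the union of the open regions found in any sample) that overlap 3 windows of the dm3 genome: 35 kb of 3R around puc, with peaks from 3930630 to 3957966, 32 kb of 2L around Ets21C, with peaks from 540502 to 564246, and 31 kb of 3L around Ilp8, with peaks from 17017242 to 17042692. They number 48 of the 36506 merged peaks with counts: 22 in the puc window, 14 in the Ets21C window and 12 in the Ilp8 window. In each window 1 peak is paired with the gene in the study's own list of regions that opened in tumors, and is called the paired peak here. Those 3 peaks were chosen by the study on these same samples, so their opening is a description of the choice. The other 45 peaks were taken only for lying in a window. Each window lies around its paired peak, so these 45 are neighbors of regions chosen for opening and not a neutral set.

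JNK signaling starts when a ligand of the tumor necrosis factor family, Eiger, binds its receptors and a chain of kinases ends at Basket, the fly JNK. Basket activates the AP-1 transcription factors Jra and kay, the fly Jun and Fos. In imaginal discs the pathway is known for its part in wound repair, in cell death and in the invasive growth of cells that carry oncogenic Ras and have lost cell polarity. puc encodes a phosphatase that switches JNK off again, and a rise of puc is a classical readout of the pathway. Ets21C encodes a transcription factor of the ETS family. Ilp8 encodes a secreted relaxin-like peptide by which damaged or overgrown discs delay the onset of metamorphosis.

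ATAC-seq, in which a transposase inserts adapters into accessible DNA, was done on nuclei of 10 discs per sample by the labels. For the late stage the study's methods give a few whole tumors in place of the discs, so in ATAC-seq the stages also differ in the tissue taken, whose part in the differences between stages was not tested. The 7 ATAC-seq samples are 3 wild types (w;;FRT82, called FRT82 here, Optix-GFP and DGRP-208), a tumor of genotype RasV12; scrib-/- at each of an early and a late stage, and 2 replicates that overexpress Upd, a ligand of the JAK/STAT pathway. FAIRE-seq, in which chromatin is fixed with formaldehyde and DNA not crosslinked to protein is extracted, was done on 200 discs per sample in 4 samples: FRT82 and CantonS wild types, 1 early and 1 late tumor. The tumors come from larvae in which eyFlp makes clones during disc growth (a y,w,eyFlp stock with act>y+>Gal4 and UAS-GFP and with Tub-Gal80 on FRT82, crossed to y,w flies that carry UAS-RasV12 and have scrib2 on FRT82). The clones express RasV12 and GFP under Gal4 and lack a functional copy of the polarity gene scrib, beside tissue that keeps one. The labels give the third larval instar, at the wandering stage, for every group, and by the study's methods late tumors were taken days after early ones, from larvae that stay in that stage. Upd was expressed as UAS-UPD:GFP under GMR-gal4, which drives in the differentiating part of the eye field behind the furrow and not in the rest of the disc. Each wild type is 1 library of 1 strain and each tumor stage 1 library per technique, so strain, stage and library cannot be told apart within a group. Nothing in the labels says that the samples of a group came from separate crosses, and p-values measure only the spread between these libraries.

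Between 2375435 and 10871706 reads per sample fell in the merged peaks, the fewest in the FRT82 FAIRE-seq sample and the most in the late ATAC-seq tumor. Levels are given as CPM, reads per 1000000 reads in peaks after TMM scaling, whose factors ran from 0.853 to 1.23. All 48 peaks were tested, and all 48 also passed edgeR's filter on low counts in the comparison that used both techniques together. At least 10 reads were counted in every sample for 40 of them. A single value was 0 reads, in a peak of the Ets21C window from 558953 to 559057 in the Optix-GFP sample, which allows up to 3 reads or 0.491 CPM. In whole discs, more cells with an open region and a more open region per cell cannot be told apart.

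Of the 48 peaks, 18 rose in the tumors when both techniques were tested together with technique as a term (edgeR quasi-likelihood test, two-sided, Benjamini-Hochberg adjusted p under 0.01 over all peaks, 4 tumors against 5 wild types). These were 9 of 22 in the puc window, 5 of 14 in the Ets21C window and 4 of 12 in the Ilp8 window. Among all merged peaks 11.6% rose. None of the 48 fell, against 12.5% of all peaks, and none of them was lower at an unadjusted p under 0.05 or by DESeq2. The median log2 fold change over the 48 was 0.48, and that over all peaks was -0.03. The 18 opened peaks had log2 fold changes from 0.86 to 3.58, and the 30 others from -0.31 to 1.01, of which 25 were above 0. In 23 of the 48 peaks, the 18 opened ones included, every tumor was higher than every wild type of its technique, which held for 17% of all peaks. In 0 of 48 was every tumor lower, against 18.3% of all peaks.

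**Figure D1:**
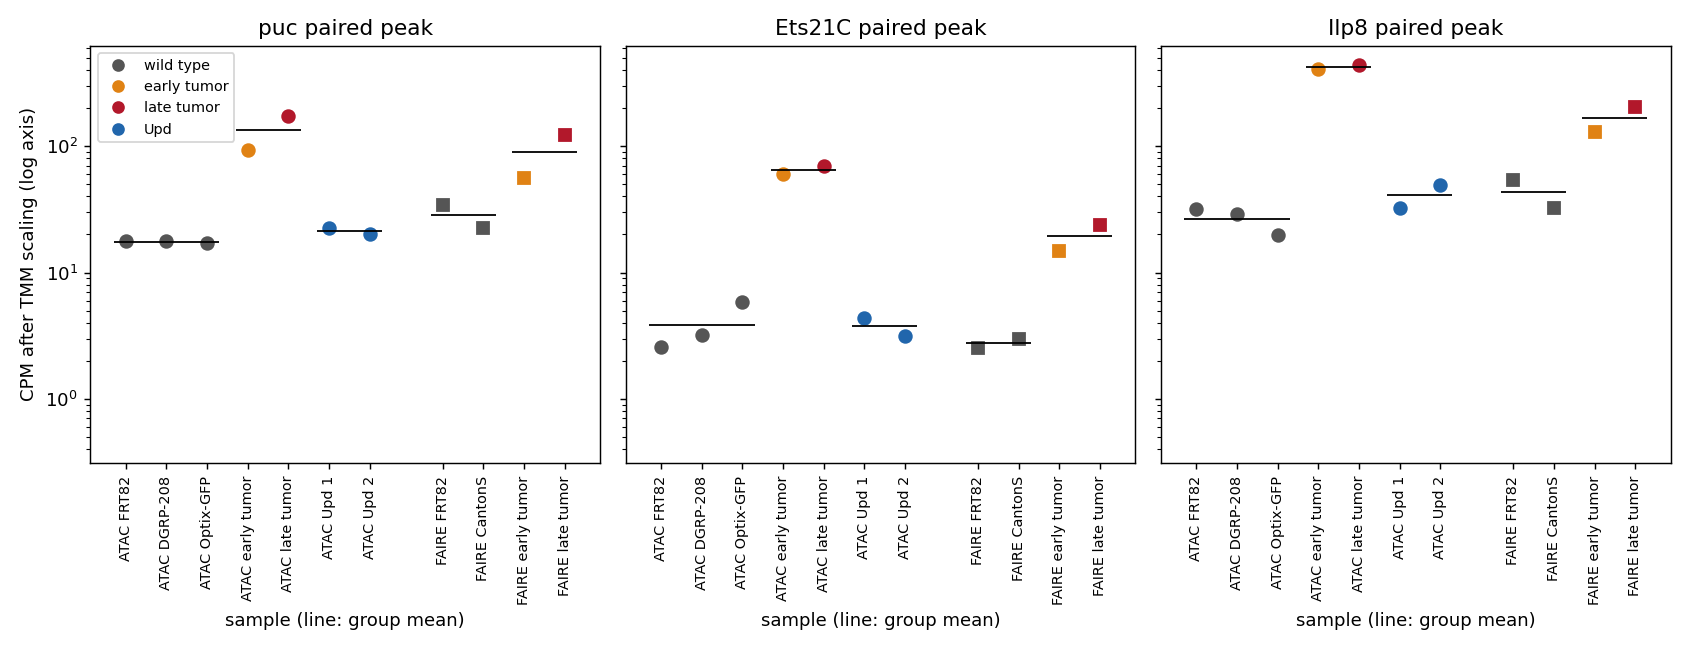
CPM after TMM scaling (log axis) of the paired peaks of puc, Ets21C and Ilp8 in each of the 11 samples, circles for ATAC-seq and squares for FAIRE-seq, with a line at each group mean. In each panel all 4 tumors lie above all wild types of their technique, and the 2 Upd samples lie near the ATAC-seq wild types.

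The paired peak of puc, the phosphatase gene of the negative feedback loop, spans 3R from 3942722 to 3943386. In ATAC-seq it stood at 17.7 CPM in FRT82, 17.7 in DGRP-208 and 17.2 in Optix-GFP, at 92.7 in the early and 175 in the late tumor, and at 22.6 and 20.0 in the Upd samples. In FAIRE-seq it stood at 34.1 in FRT82, 22.5 in CantonS, 56.3 in the early and 122 in the late tumor. The wild types of ATAC-seq were close together (17.6 ± 0.322 CPM, SD, n = 3), and the tumors of both techniques were above every wild type, the late one higher than the early one each time. The mean of the tumors was 7.62-fold that of the wild types in ATAC-seq and 3.15-fold in FAIRE-seq. The combined log2 fold change was 2.36 ± 0.30 (SE; edgeR adjusted p = 6.62e-05). In the separate peak calls this region was found in all 4 tumors and in none of the 5 wild types or 2 Upd samples. It was the only one of the 48 called in all 4 tumors and no wild type, which held for 1.66% of all merged peaks. Among all 4226 opened peaks 13.6% were called so. When a called peak had to cover 40% of the merged one, the puc region was found only in the 2 ATAC-seq tumors.

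The opened peaks of the puc window were mostly neighbors. A run of 7 successive merged peaks, from 3936289 to 3943386, rose over 7.10 kb that end with the paired peak. The nearest member of this run, from 3941981 to 3942380, stood in ATAC-seq at 27.3, 18.0 and 15.1 CPM in the FRT82, DGRP-208 and Optix-GFP wild types, at 98.1 in the early and 153 in the late tumor, and at 15.9 and 18.5 in the Upd samples. Its FAIRE-seq values were 26.5 and 21.4 CPM in the FRT82 and CantonS wild types, 41.9 in the early and 82.1 in the late tumor. The groups did not overlap in either technique, and the combined log2 fold change was 2.08 ± 0.29 (edgeR adjusted p = 1.19e-04).

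At the far end of the run lay a short peak of 111 bp, from 3936289 to 3936399. Its ATAC-seq values were 1.34, 3.58 and 3.76 CPM in the wild types, 8.39 in the early and 14.7 in the late tumor, and 4.69 and 2.04 in the Upd samples, while FAIRE-seq gave 3.62 and 5.49 in the wild types, 7.24 in the early and 13.5 in the late tumor. These levels are low. The tumors were above the wild types each time, as in every opened peak (combined log2 fold change 1.61 ± 0.35, edgeR adjusted p = 0.00216). This call was lost without the late ATAC-seq tumor and without the technique term.

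In the middle of the run, the peak from 3939829 to 3940261 stood in ATAC-seq at 25.9, 18.9 and 25.4 CPM in the wild types, at 78.1 and 90.7 in the early and late tumors, and at 24.6 and 25.5 with Upd. Its FAIRE-seq levels were 29.3 and 43.2 in the wild types, 50.9 in the early and 77.5 in the late tumor. The gap between groups was wide in ATAC-seq and narrow in FAIRE-seq, where the early tumor was just above CantonS (combined log2 fold change 1.37 ± 0.23, edgeR adjusted p = 4.13e-04). Beside it, the peak of 126 bp from 3940265 to 3940390 stood in ATAC-seq at 3.09, 1.72 and 5.56 CPM in the wild types, 11.4 and 19.9 in the early and late tumors, and 2.68 and 3.68 with Upd. Its FAIRE-seq values were 2.54 and 4.93 in the wild types and 8.61 and 8.98 in the tumors. Again no tumor overlapped the wild types (combined log2 fold change 1.74 ± 0.35, edgeR adjusted p = 0.00141), and this call too was lost without the late ATAC-seq tumor. The remaining opened members of the run, from 3938516 to 3938799 and from 3939018 to 3939726, had combined log2 fold changes of 1.22 and 1.10, and the call of the second was lost without the technique term (adjusted p = 0.0101).

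The 12.2 kb beyond the paired peak on the other side held 8 peaks that did not pass the threshold before the next one that did. That peak, from 3955107 to 3955407, stood in ATAC-seq at 2.96, 4.37 and 4.75 CPM in the wild types, 16.1 and 31.5 in the early and late tumors, and 5.19 and 4.09 with Upd. In FAIRE-seq it stood at 9.06 and 10.8 in the wild types, 15.6 in the early and 25.3 in the late tumor. No tumor overlapped the wild types (combined log2 fold change 1.86 ± 0.33, edgeR adjusted p = 6.02e-04). The last opened peak, from 3957210 to 3957654, was the weakest of the 18, with 0.86 and an edgeR adjusted p of 0.00747, and it stayed past the threshold in 6 of 14 alternatives. The peak with the most CPM of the window in wild type ATAC-seq, from 3931497 to 3932578, lay near one end of the window, with 219, 232 and 200 CPM in the ATAC-seq wild types, 276 and 248 in the early and late tumors, 222 and 191 with Upd, 245 and 193 in the FAIRE-seq wild types, and 212 and 256 in the early and late FAIRE-seq tumors. Tumors and wild types overlapped in FAIRE-seq, and the change did not pass the threshold (log2 fold change 0.17 ± 0.14, edgeR adjusted p = 0.372). By level per kb the peak from 3945427 to 3946000 was higher in the ATAC-seq wild types, at 218 against 201 CPM per kb. The strongest negative value among the 48 peaks was also here, -0.31 ± 0.24 for the peak from 3946184 to 3946446 (edgeR adjusted p = 0.343).

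**Figure D2:**
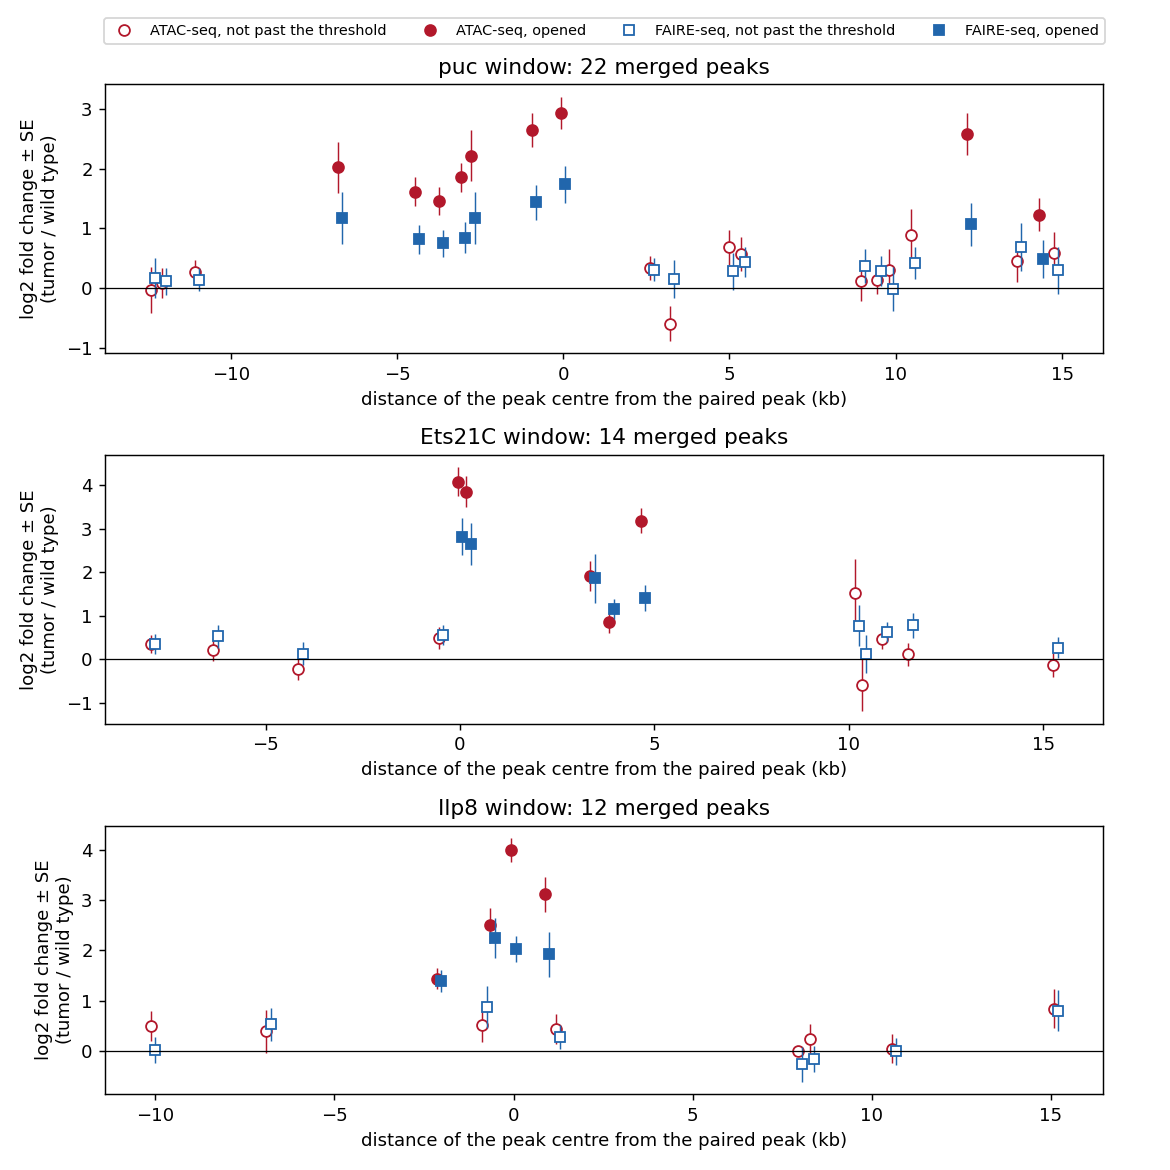
Log2 fold change of tumors against wild types, with its SE, for each merged peak of the 3 windows by the distance of its centre from the paired peak in kb, circles for ATAC-seq and squares for FAIRE-seq. Filled symbols are the 18 peaks that opened in the combined test: 7 side by side in the puc window with 2 more on the other side, 5 side by side in the Ets21C window, and 4 within 2.08 kb of the Ilp8 paired peak.

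The paired peak of Ets21C, the ETS factor gene, spans 2L from 548673 to 548905 and was the weakest of the 3 in wild type discs. In ATAC-seq it stood at 2.55 CPM in FRT82, 3.18 in DGRP-208 and 5.89 in Optix-GFP, at 59.8 in the early and 69.9 in the late tumor, and at 4.36 and 3.13 with Upd. Its FAIRE-seq levels were 2.54 in FRT82, from 7 reads, and 2.96 in CantonS, at 14.7 in the early and 24.0 in the late tumor. Tumors and wild types were far apart, 16.7-fold in ATAC-seq and 7.04-fold in FAIRE-seq between the means. The combined log2 fold change was 3.58 ± 0.31 (edgeR adjusted p = 2.49e-05), the 3rd highest of all 36506 peaks. By level per kb this peak was at percentile 13.1 of all merged peaks in the ATAC-seq wild types and at percentile 97.9 in the late ATAC-seq tumor. The separate peak calls found it in both ATAC-seq tumors and in no other sample.

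A neighbor of 161 bp, from 548931 to 549091, followed the same course. Its ATAC-seq values were 1.07, 2.38 and 2.29 CPM in the wild types, 28.8 in the early and 26.6 in the late tumor, and 2.51 and 1.09 with Upd, and its FAIRE-seq values were 3.26 and 1.41 in the wild types, 10.2 in the early and 15.2 in the late tumor. It was the only opened peak with a lower ATAC-seq level in the late than in the early tumor (combined log2 fold change 3.35 ± 0.35, edgeR adjusted p = 3.27e-05).

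The other opened peaks of this window lay 3.42 to 4.71 kb away, and no merged peak lay between them and this pair. The first, of 147 bp from 552134 to 552280, stood in ATAC-seq at 5.64, 3.31 and 4.91 CPM in the wild types, 12.7 and 21.7 in the early and late tumors and 4.19 and 3.27 with Upd, and in FAIRE-seq at 1.81 and 4.65 in the wild types, 5.09 in the early and 19.9 in the late tumor. In FAIRE-seq the early tumor was barely above CantonS and the late one stood apart (combined log2 fold change 1.86 ± 0.37, edgeR adjusted p = 0.00139). Without the technique term this call was lost (adjusted p = 0.0118).

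Next to it lay the most accessible peak of the window in wild type ATAC-seq, from 552375 to 553014. It stood in ATAC-seq at 168, 148 and 239 CPM in the wild types, 269 in the early and 392 in the late tumor, and 144 and 155 with Upd, and in FAIRE-seq at 64.1 and 48.6 in the wild types, 98.4 in the early and 143 in the late tumor. This open region of normal discs rose less than its neighbors, 1.79-fold between the means in ATAC-seq and 2.14-fold in FAIRE-seq (combined log2 fold change 0.94 ± 0.19, edgeR adjusted p = 0.00156), and it was the single opened peak whose fold change was larger in FAIRE-seq than in ATAC-seq. The call was lost without the late ATAC-seq tumor or without the technique term, with a highest adjusted p of 0.366.

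The last, from 553212 to 553792, stood in ATAC-seq at 10.5, 8.21 and 10.96 CPM in the wild types, 66.9 in the early and 112 in the late tumor, and 12.2 and 12.9 with Upd. In FAIRE-seq it stood at 24.3 and 29.2 in the wild types, 45.6 in the early and 93.0 in the late tumor. All tumors were above all wild types (combined log2 fold change 2.35 ± 0.33, edgeR adjusted p = 1.33e-04). The peak from 548024 to 548581, only 0.49 kb from the paired peak and at percentile 95.1 by level per kb in wild type, did not pass the threshold.

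The paired peak of Ilp8, the gene of the secreted peptide, spans 3L from 17026997 to 17027913, and the study's list pairs the same region with beg. In ATAC-seq it stood at 31.6 CPM in FRT82, 29.0 in DGRP-208 and 19.6 in Optix-GFP, at 412 in the early and 441 in the late tumor, and at 32.5 and 49.2 with Upd. Its FAIRE-seq levels were 54.0 in FRT82, 32.5 in CantonS, 130 in the early and 203 in the late tumor. Here the early tumor was already near the late one in ATAC-seq, and both were far above the wild types (26.7 ± 6.28 CPM, SD, n = 3). The tumor mean was 15.9-fold the wild type mean in ATAC-seq and 3.85-fold in FAIRE-seq, with a combined log2 fold change of 3.10 ± 0.36 (edgeR adjusted p = 5.86e-05). It ranked 38 among all peaks by this value. The region was called as a peak in 4 of 5 wild types, in all tumors and in both Upd samples, by an overlap of at least 1 bp. When a called peak had to cover 40% of the merged one, it was called in 1 wild type, in all 4 tumors and in 1 Upd sample.

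A peak of 203 bp just before it, from 17026768 to 17026970, stood in ATAC-seq at 3.09, 3.18 and 1.96 CPM in the wild types, 12.0 and 18.9 in the early and late tumors, and 5.70 and 4.77 with Upd. In FAIRE-seq it stood at 5.07 in both wild types, 16.2 in the early and 30.5 in the late tumor. The tumors were above the wild types in both techniques by a similar ratio, 5.64-fold and 4.61-fold between the means (combined log2 fold change 2.34 ± 0.28, edgeR adjusted p = 5.12e-05). On the other side, the peak of 207 bp from 17028281 to 17028487 stood in ATAC-seq at 1.48, 1.85 and 1.64 CPM in the wild types, 13.1 and 15.6 in the early and late tumors, and 1.01 and 1.77 with Upd. Its FAIRE-seq levels were 5.07 and 7.75 in the wild types, 12.3 in the early and 36.7 in the late tumor. It was among the least accessible peaks in wild type, at percentile 3.81 by level per kb (combined log2 fold change 2.49 ± 0.35, edgeR adjusted p = 1.29e-04).

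The most accessible peak of this window in wild type ATAC-seq, from 17025056 to 17025685, also rose. It stood in ATAC-seq at 96.6, 71.4 and 77.4 CPM in the wild types, 209 and 232 in the early and late tumors, and 70.9 and 89.0 with Upd, and in FAIRE-seq at 45.3 and 36.8 in the wild types, 94.9 in the early and 112 in the late tumor. The rise was alike in the techniques, 2.70-fold and 2.52-fold between the means, and the early tumor was close to the late one (combined log2 fold change 1.37 ± 0.15, edgeR adjusted p = 4.16e-05). The call was lost without the technique term (adjusted p = 0.0275). The peaks more than 2.08 kb from the paired peak, 6 in all, had combined log2 fold changes from -0.16 to 0.78, and none passed the threshold.

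**Figure D3:**
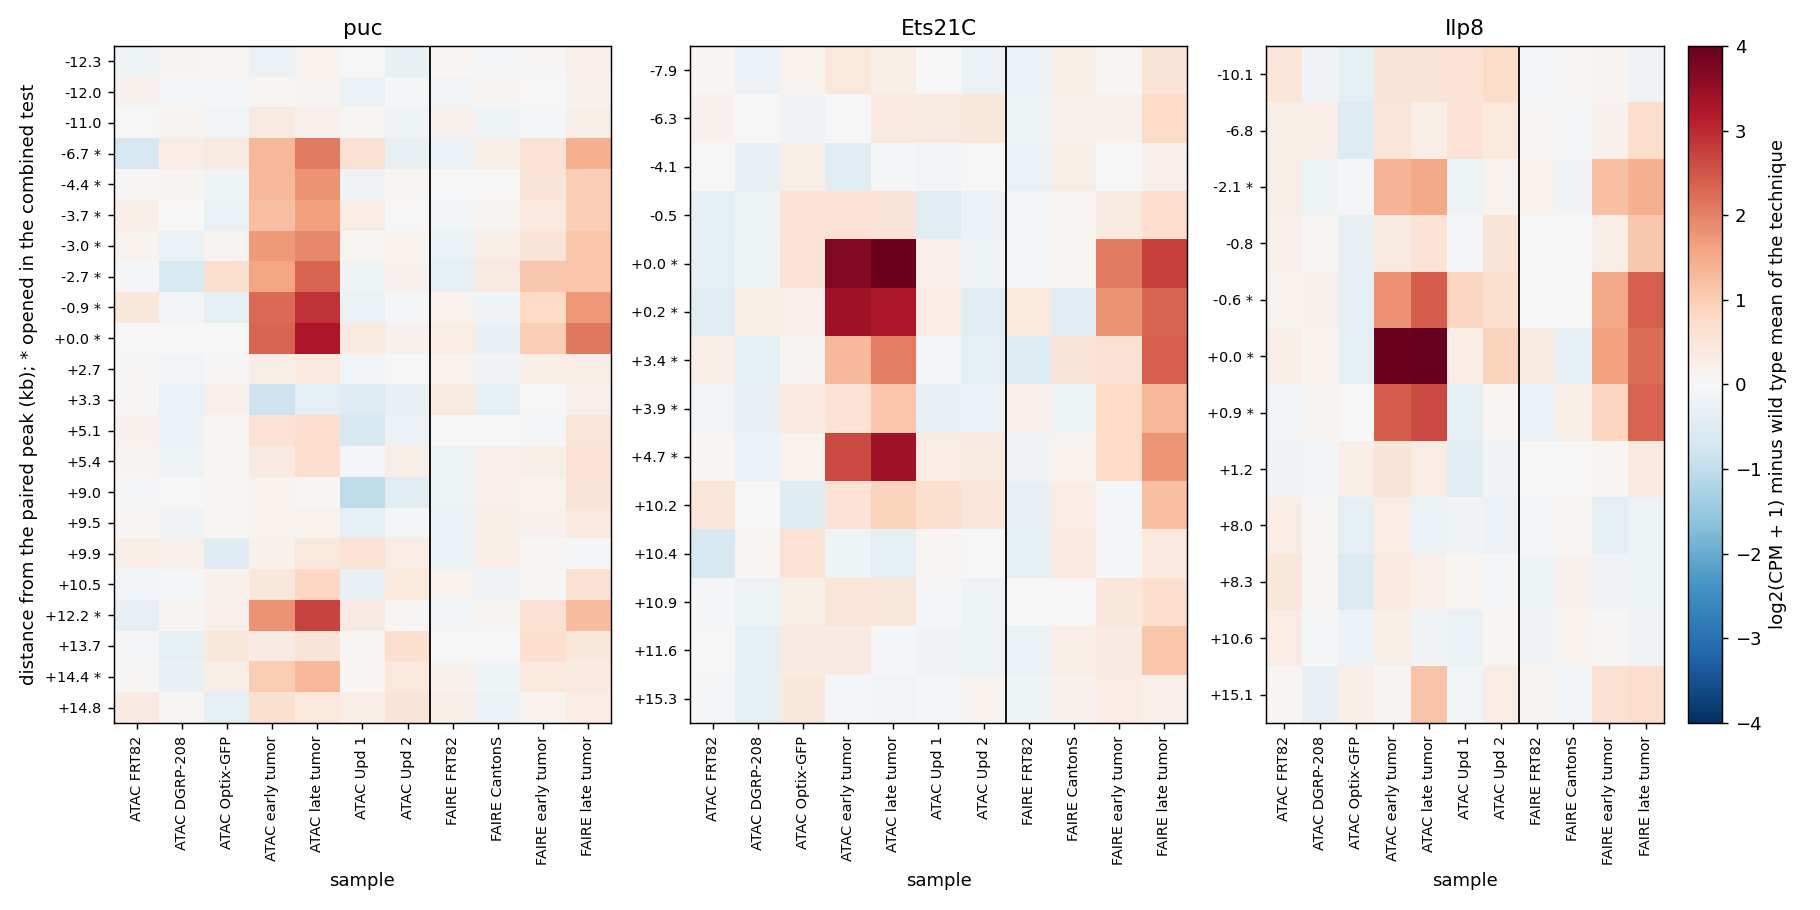
Each of the 48 peaks (rows, ordered along the chromosome and labelled by the distance from the paired peak in kb) in each of the 11 samples (columns), colored by log2(CPM + 1) minus the wild type mean of the same technique. The asterisks mark the 18 opened peaks, whose rows lie on the red side in the tumor columns of both techniques and are mostly pale in the Upd columns. Some FAIRE-seq tumor cells of these rows are pale too.

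In the wild types the opened peaks had a lower median level than the other peaks of the windows, a difference that was not tested. By level per kb in the ATAC-seq wild types, the median percentile among all merged peaks was 28.6 for the opened and 54.6 for the other peaks. In the late ATAC-seq tumor these medians were 94.3 and 66.4, a description that follows in part from the choice of opened peaks. Of the 18 opened peaks, 9 were called in no wild type and 4 in all 5 of them, beside 58.0% and 16.5% of all 4226 opened peaks. Of the 30 others, 13 were called in all 5 wild types, beside 29.4% of all merged peaks. These counts are a description, since the opened peaks were chosen against the same wild types. The opened peaks had a median length of 350.5 bp and the others of 277.5 bp, beside 269 bp for all merged peaks. CTCF, an insulator protein, was mapped in CantonS discs by ChIP-seq, and its peaks overlapped 0 of the 18 opened and 4 of the 30 other peaks by at least 1 bp, against 8.19% of all merged peaks. Those 4 lie at one end of the puc window (from 3930630 to 3930786 and from 3930874 to 3931229) and in the Ets21C window (from 540502 to 541285 and from 544537 to 544825).

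The summed levels of the windows are given as a description, since the opened peaks were chosen for being higher in these same tumors. In the Ilp8 window, the summed level of the opened peaks was 49.3% to 53.8% of the window in the ATAC-seq wild types and 82.1% and 84.4% in the early and late tumors, and the paired peak alone went from 10.5% to 13.7% up to 52.3% and 52.6%. The 8 other peaks of that window summed to 86.4 to 136 CPM in the ATAC-seq wild types and to 141 and 130 CPM in the tumors. In the puc window, the 13 other peaks summed to 479 to 506 CPM in the ATAC-seq wild types and 583 and 586 CPM in the tumors, and the share of the opened peaks went from 23.1% to 25.3% up to 46.1% and 56.0%. In the Ets21C window, the 9 other peaks summed to 341 to 507 CPM in the ATAC-seq wild types and 494 and 483 CPM in the tumors, and the opened share went from 32.6% to 34.1% up to 47.0% and 56.3%. In FAIRE-seq the other peaks of the Ets21C window summed to 267 and 337 CPM in the FRT82 and CantonS wild types and to 352 and 461 CPM in the early and late tumors. Those of the puc window summed to 612 and 559 CPM in the wild types and 618 and 721 CPM in the tumors, and those of the Ilp8 window to 175 and 191 against 189 and 204 CPM. In FAIRE-seq both tumors were thus above both wild types in the other peaks of the Ets21C and puc windows, and in the Ilp8 window the late tumor was. In ATAC-seq both tumors were above the wild types in the other peaks of the puc window. With Upd the opened shares were 25.9% and 26.6% in the puc window, 31.0% and 31.8% in the Ets21C window, and 49.5% and 54.3% in the Ilp8 window.

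**Figure D4:**
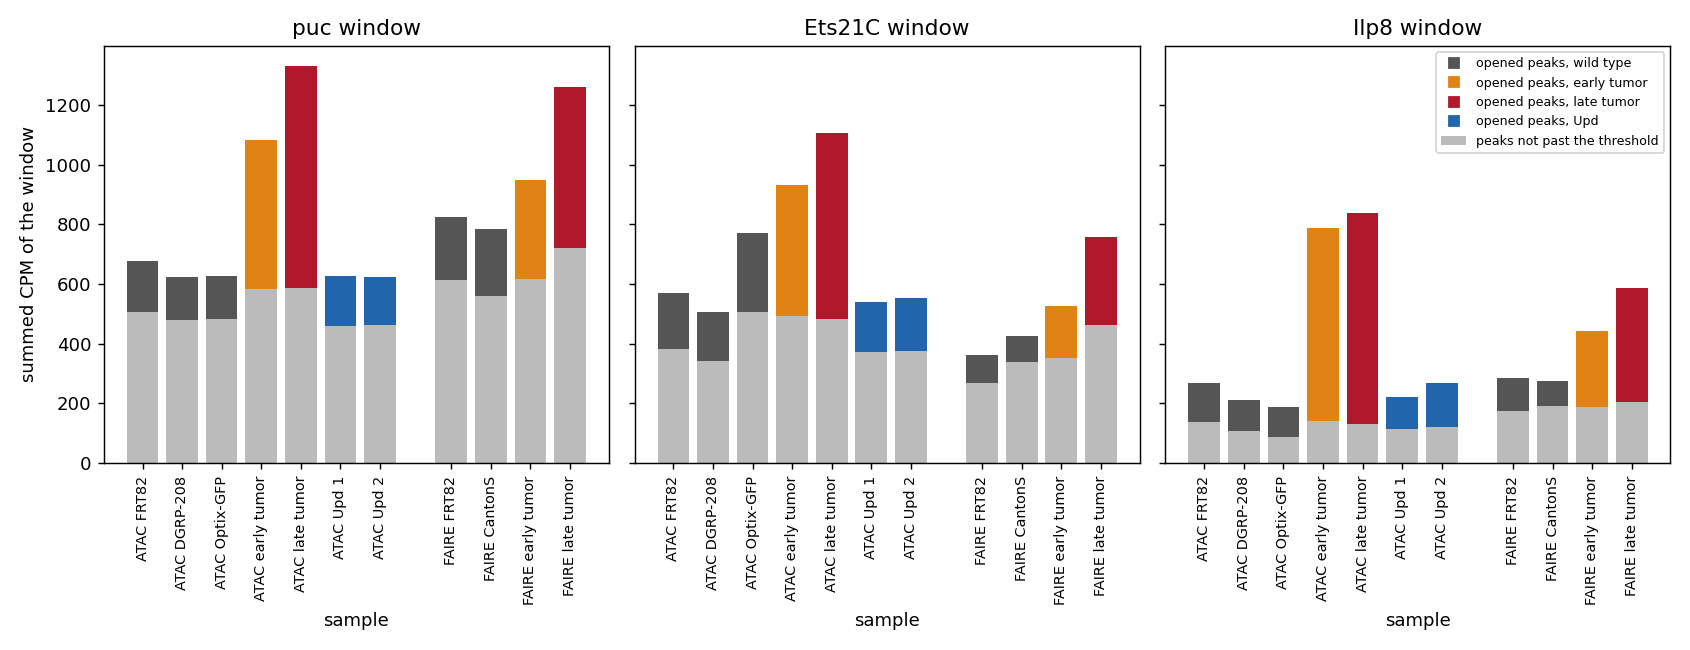
Summed CPM of all merged peaks of each window in each sample, split into the peaks that opened in the combined test (colored) and the others (grey). The colored part grows in the tumors of both techniques, and the Upd bars are about as high as those of the ATAC-seq wild types.

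Whether both techniques showed the opening was asked in each one alone. In ATAC-seq 17 of the 48 peaks rose and 0 fell (edgeR, adjusted p under 0.01, 2 tumors against 3 wild types), with 13.5% of all peaks higher and 12.8% lower. All 17 belonged to the 18 peaks of the combined test, and the 3 paired peaks were among them. The combined test holds the same libraries of both techniques. This overlap, and the direction of the 18 peaks within each technique, are therefore a description. In FAIRE-seq 9 rose and 0 fell (2 tumors against 2 wild types), with 1.58% of all peaks higher and 0.781% lower. None of the 48 was lower at an unadjusted p under 0.05 in either technique, nor past the threshold by DESeq2. The 9 FAIRE-seq calls were 4 in the Ets21C window, 3 in the Ilp8 window and 2 in the puc window, and all 3 paired peaks were among them. All 18 opened peaks had a FAIRE-seq fold change above 0, from 0.48 to 2.82 on the log2 scale, and in 17 of 18 it was smaller than that of ATAC-seq. The FAIRE-seq count was 14 without the early and 2 without the late FAIRE-seq tumor, with 4.93% and 0.121% of all peaks higher. The call of the puc paired peak was lost without the late tumor (adjusted p = 0.124) or without CantonS (adjusted p = 0.0120).

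The difference between the techniques itself passed the threshold for 0 of the 48 peaks (edgeR interaction of tumor and technique, adjusted p under 0.01), with 0.011% of all peaks called. With no adjustment 8 peaks had p under 0.05, a share near the 17.3% of all peaks, and these 8 were opened peaks with the smaller effect in FAIRE-seq. The lowest value was that of the Ilp8 paired peak, whose FAIRE-seq effect was lower by 2.01 ± 0.39 on the log2 scale with an edgeR adjusted p of 0.0188, and DESeq2 called this peak alone of the 48 (adjusted p = 4.83e-04), with 1.32% of all peaks called in that fit. Among all 4226 opened peaks the median of this difference was -0.91, and among the 18 it was -1.04.

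The stages were compared in one model of wild type, early and late tumors with technique as a term. In early tumors 9 of the 48 peaks were already higher than in wild type, with 4.21% of all peaks called: 3 in the Ets21C window, 2 in the puc window and all 4 opened peaks of the Ilp8 window. The log2 fold changes of the paired peaks were 3.36 ± 0.35 for Ets21C (edgeR adjusted p = 8.33e-04), 2.96 ± 0.43 for Ilp8 (edgeR adjusted p = 0.00205) and 1.78 ± 0.29 for puc (edgeR adjusted p = 0.00198). In late tumors 17 of the 48 were higher, with 9.7% of all peaks called, and the paired peaks had 3.76 ± 0.35, 3.22 ± 0.43 and 2.77 ± 0.28 in the same order. These comparisons share the wild types. Without the early ATAC-seq tumor no peak of the whole table was called early, and without the late ATAC-seq tumor none was called late, so both counts rest on the ATAC-seq tumors. DESeq2 called 14 higher in early tumors, and 8.1% of all peaks.

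Between late and early tumors 0 of the 48 peaks passed the threshold, as did 0% of all peaks (edgeR, adjusted p under 0.01). With no adjustment 3 of the 48 had p under 0.05, near the 4.11% of all peaks, and DESeq2 called 0 of the 48 and 8 of all. By level, each ratio of late to early rests on 1 library per stage and technique. Among the 18 opened peaks 17 were higher in the late tumor in ATAC-seq, with a median ratio of 1.42, and 17 in FAIRE-seq, with a median ratio of 1.59. Of the 30 other peaks of the windows 16 were higher in the late tumor in ATAC-seq and 24 in FAIRE-seq, with median ratios of 1.01 and 1.17. The share of all merged peaks that were higher in the late tumor was not counted. Among all opened peaks 64.9% were higher in ATAC-seq and 85.6% in FAIRE-seq, with median ratios of 1.11 and 1.36. The paired peaks took this step unequally in value. The puc paired peak had a log2 change of 0.99 ± 0.35 from early to late, that of Ets21C 0.41 ± 0.41 and that of Ilp8 0.26 ± 0.53, and whether these differ from each other was not tested. When early and late tumors were fitted without the wild types, 4 of the 48 passed the threshold, all higher in late tumors, with 0.381% of all peaks higher and 0.474% lower in that fit: the puc paired peak (0.98 ± 0.19, edgeR adjusted p = 9.47e-05), its neighbor from 3941981 to 3942380 (0.77 ± 0.19, edgeR adjusted p = 0.00808), and the Ets21C peaks from 552134 to 552280 (1.27 ± 0.30, edgeR adjusted p = 0.00365) and from 553212 to 553792 (0.86 ± 0.20, edgeR adjusted p = 0.00253). Early discs hold clones and normal tissue together, and the share of clone cells was not measured here, so its part in these differences was not tested.

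The Upd samples ask what an overgrowth signal through JAK/STAT does to the same regions. In Upd discs 0 of the 48 peaks passed the threshold (edgeR, adjusted p under 0.01, 2 samples against 3 wild types), with 0.0164% of all peaks called. DESeq2 also called 0 of the 48. With no adjustment 4 of the 48 had p under 0.05, a share near the 7.06% of all peaks, so nothing is read from these 4. They are a puc window peak that was lower with Upd, from 3951993 to 3952157 (-0.84 ± 0.36, edgeR adjusted p = 0.682), and 3 peaks of the Ilp8 window. One of the 3, from 17017242 to 17017523 (0.63 ± 0.28, edgeR adjusted p = 0.698), was not among the opened peaks. The Ilp8 paired peak had the 2 Upd values above all 3 wild types (log2 fold change 0.62 ± 0.27, edgeR adjusted p = 0.687), and so did its neighbor from 17026768 to 17026970 (0.92 ± 0.37, edgeR adjusted p = 0.655). The puc paired peak was also slightly higher in both (0.29 ± 0.23, edgeR adjusted p = 0.827), and that of Ets21C lay within the wild types (-0.03 ± 0.43, edgeR adjusted p = 0.993). Upd values above all 3 wild types were not particular to the Ilp8 window or to opened peaks. Other peaks had them too, among them the opened Ets21C window peak from 553212 to 553792. So did peaks that did not open, such as those from 542274 to 542726 in the Ets21C window and from 3952812 to 3953036 in the puc window. How often this held among all merged peaks was not counted, so nothing is read from it. The 18 opened peaks had a median Upd log2 fold change of 0.04, with 9 of 18 above 0, beside a median of 0.14 and 65.6% above 0 among all 4226 opened peaks. This comparison shares its wild types with the one that chose the opened peaks.

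The tumors were then tested against the Upd samples directly in ATAC-seq. Of the 48 peaks 17 were higher in the tumors and 0 lower, with 12.1% of all peaks higher and 12.7% lower (edgeR, adjusted p under 0.01). All 17 belonged to the 18 opened ones, which were chosen for being higher in these same tumors, so this overlap is a description. The median log2 difference was 2.24 over the 18 opened peaks, beside 1.76 over all opened peaks of the genome. The log2 difference was 4.10 ± 0.36 for the Ets21C paired peak (edgeR adjusted p = 2.00e-06), 3.36 ± 0.27 for that of Ilp8 (edgeR adjusted p = 1.27e-06) and 2.63 ± 0.29 for that of puc (edgeR adjusted p = 7.72e-06). The count was 11 without the late ATAC-seq tumor and 11 without the second Upd replicate, with 6.35% and 5.65% of all peaks higher.

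The 3 paired peaks varied together across the 11 samples. On log2(CPM + 1) with each technique centred on its wild type mean, Pearson's r was 0.97 between puc and Ilp8, 0.96 between puc and Ets21C and 0.94 between Ets21C and Ilp8. This is a description over samples that share libraries and fall into tumors and the rest. It was not particular to these genes, since the Ilp8 paired peak ranked 369 among the 36505 other merged peaks by likeness to that of puc. The 3 peaks outside the windows most like the puc paired peak were on 2L from 20999711 to 20999982 (r = 0.993), on 3L from 3419863 to 3420142 (r = 0.992) and on 3R from 17266665 to 17266835 (r = 0.990). Those most like that of Ets21C were on X from 13709139 to 13709644 (r = 0.994), a region the study pairs with Clic, on 3L from 1007653 to 1007974 (r = 0.993) and on 3R from 14220652 to 14220987 (r = 0.991). Those most like that of Ilp8 were on 3R from 14304877 to 14305554, on 3L from 733272 to 733915 and on 2L from 4219160 to 4219669, each with r from 0.996 to 0.998.

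Of a list of 25 genes of the JNK pathway and its described targets or partners, the study's pairs place 12, and only these could be looked at. They are regions that the study listed because they changed in these samples, so their direction is not independent evidence. The share of rising regions among all of the study's pairs was not counted. Of the 12 pathway genes (ligand, receptors, kinases, AP-1 factors and phosphatase) 2 were placed: puc, and wgn, a receptor of the ligand, whose region fell (combined log2 fold change -1.71 ± 0.28, edgeR adjusted p = 3.07e-04). Of the 13 described targets or partners 10 were placed, with chic, scaf and hid left out, and all 10 rose. Apart from Ets21C and Ilp8 they were Mmp1, a matrix metalloproteinase (2.09 ± 0.24), the JAK/STAT ligand genes upd2 (2.26 ± 0.37), upd3 (2.03 ± 0.26) and os (1.11 ± 0.19), cher, the fly filamin (2.62 ± 0.37), the transcription factor genes Atf3 (1.29 ± 0.18) and ftz-f1 (2.38 ± 0.37), and rpr, an activator of cell death (1.54 ± 0.20), with edgeR adjusted p-values from 4.93e-05 to 4.10e-04. The Ets21C and Ilp8 paired peaks had the highest combined values among the 12.

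Which gene a peak of these windows acts on is not given by the files. In the Release 6 gene order, Ets21C lies between Spp and rempA with nAChRbeta3 inside it, puc lies between CG7900 and CG7878 with the long non-coding RNA CR44331 inside it, and Ilp8 lies between CG7730 and the long non-coding RNA CR45756, with beg further on. Positions of the peaks in exons or introns were not analysed here, since the gene annotation at hand is of another build than the files.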

How the data were processed

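Per the labels and the study's methods, reads were cleaned of adapters, mapped with bowtie2 to dm3 (FlyBase r5.53), filtered and, for ATAC-seq, centred on the cut sites. Peaks were called with MACS2 in each sample, merged over all samples, and reads on merged peaks were counted with HTSeq. The authors deposited raw counts per merged peak and sample, and other files with the start and end of each peak without a score.

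Counts were tested over all 36506 merged peaks with edgeR 4.0.16 in R 4.3.3 (TMM, robust quasi-likelihood F-test, Benjamini-Hochberg, adjusted p under 0.01), and with DESeq2 1.42.0 as an alternative. The tests were checked on simulated counts. Each SE was obtained by dividing the size of the log2 fold change by the root of its F value. The other alternatives were RLE size factors, total counts, filterByExpr, no technique term, stages fitted separately, and each sample left out. The windows, lists and tests were chosen with earlier results of these data known. By rule, values in every sample are given for each paired peak, up to 5 other called peaks a window by size of change, and the peak with the most CPM in wild type ATAC-seq. Likeness used a pseudocount of 1. Reads have no molecular identifiers, so limits on 0 reads cover counting error only. Motifs were not analysed here. Figures used matplotlib 3.10.9. Positions count from 1.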

Additional observations from a re-analysis of the deposited data

How the results depend on the processing

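Tumors and wild types were not tested as pairs, since nothing in the labels links a tumor sample to a wild type one. Only the 2 Upd samples carry replicate numbers in their labels. Of the 48 peaks, those that rose in the combined comparison numbered 12 to 19 over all 14 alternatives, with 12 without the technique term, where 4.19% of all peaks rose. They numbered 14 to 19 when 1 sample was left out, where 7.22% to 13.2% of all peaks rose. Of the 18 opened peaks, 11 stayed past the threshold in every alternative, the 3 paired peaks among them, whose combined log2 fold changes ran from 1.99 to 2.63 for puc, 3.38 to 3.83 for Ets21C and 2.88 to 3.42 for Ilp8. Leaving out 1 sample gave 12 to 19 peaks that rose in ATAC-seq, 2 to 14 in FAIRE-seq, 0 to 12 in early and 0 to 17 in late tumors, and 11 to 20 that differed between tumors and Upd. The share of all peaks called also moved in these fits. With 1 wild type left out, 11.7% to 13.1% of all peaks rose in ATAC-seq. In the stage model 1.71% to 4.90% then rose in early and 7.29% to 9.61% in late tumors. Between tumors and Upd 25.6% to 29.6% then differed in either direction. DESeq2 called 14 peaks in early tumors and 1 that differed between techniques. Fitted separately, the stages gave 4 peaks between late and early. The counts of peaks that fell in tumors, or changed with Upd, stayed at 0 throughout. The Upd fold change of the Ets21C paired peak turned from -0.03 to 0.090 with total counts, a scaling that moved the median of all peaks in that comparison from -0.01 to 0.10, and ran from -0.27 to 0.38 when 1 sample was left out, with 0.38 without Optix-GFP and 0.19 without the second Upd replicate, and adjusted p-values from 0.808 to 1.00. The 40% overlap left 3 CTCF overlaps of 4, and 0 peaks called in all 4 tumors and no wild type. Depth limits 8 of the 48 peaks, which had under 10 reads in at least 1 sample.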
